A study of Mus musculus with 8 samples.

Results

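The alpha and beta defensin genes of the mouse were followed as every non-control array probe whose gene name in the scanner files begins with Defa, Defb or Defcr. The rule found 75 probes of 60 gene names, among 55669 probes of 34820 names used. No name began with Defcr. The alpha set has 24 probes of 17 names and the beta set 51 probes of 43 names. RNA was measured on 8 one-colour arrays, each holding 1 pooled sample from mice of mixed C57BL/6 and 129 background. The study asked how loss of Cdx1, a homeobox transcription factor of the intestine, alters ectopic gene expression in the thymus. The groups were 3 samples of Cdx1-/- medullary thymic epithelial cells (mTEC) and 3 of Cdx1+/+ mTEC, then 1 small intestine epithelial cell (SIEC) sample labelled Cdx1-/- (replicate 2) and 1 labelled Cdx1+/+ (replicate 1). The mTEC were live CD45-negative cells sorted for Epcam and UEA1 and for high CD80 and MHC class II, each sample pooling 4 to 6 thymi, and each SIEC sample pooled live Epcam-positive, CD45-negative cells of 3 mice. Ages are not stated in the labels. No label says that mTEC pools of one genotype shared no animals or litter, so p-values measure the spread between these samples.

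Defensins are small cationic peptides held together by disulphide bonds, which kill microbes by breaking their membranes. Alpha defensins of the mouse, also called cryptdins, are made by Paneth cells at the base of small intestinal crypts and are cut to their active form by the protease Mmp7. Beta defensins are made by skin, airway, kidney and, for many genes, the epididymis, where they coat maturing sperm, and some also draw in cells that carry the receptor Ccr6. Medullary thymic epithelial cells express many tissue-restricted genes of this kind ectopically, partly through the regulator Aire, which exposes developing T cells to their products. Inbred mouse strains are known to differ in which alpha defensin genes they carry.

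Defensin genes arose by duplication, so a probe may bind the RNA of a near copy, and the values below are values of probes. The first set of probe sequences is shown because Defa4 and Defa23 behaved differently on the SIEC arrays. All sequences are the 60-base probes of the array, 5′ to 3′, with capitals at the positions that differ within a set. Over 51 aligned bases the first pair differs at 9.
Defa4: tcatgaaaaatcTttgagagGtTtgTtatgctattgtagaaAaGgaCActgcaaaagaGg
Defa23: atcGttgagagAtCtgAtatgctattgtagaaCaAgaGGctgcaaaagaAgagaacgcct
The Defa23 sequence is its probe 1, which the files place at chr8:22194930-22195548 (mm9, plus strand), a span longer than the probe itself. The files give the Defa4 probe no mm9 position. A second pair, Defa1 probe 2 (no mm9 position) and Defa3 probe 1 (chr8:22427899-22427958), shows how close unplaced and placed copies can be, with 4 differences over 56 aligned bases.
Defa1: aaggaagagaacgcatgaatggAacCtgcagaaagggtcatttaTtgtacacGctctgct
Defa3: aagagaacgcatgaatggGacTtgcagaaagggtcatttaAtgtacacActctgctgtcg
A further set holds 3 related sequences without an mm9 position, which are among the 7 alpha probes of widest spread over the mTEC arrays. Of their 60 positions 15 are not the same in all of Defa-rs12, Defa-rs10 and Defa-rs7 probe 1.
Defa-rs12: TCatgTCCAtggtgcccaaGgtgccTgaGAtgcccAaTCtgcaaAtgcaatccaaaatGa
Defa-rs10: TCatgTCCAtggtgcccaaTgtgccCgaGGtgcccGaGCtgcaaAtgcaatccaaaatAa
Defa-rs7: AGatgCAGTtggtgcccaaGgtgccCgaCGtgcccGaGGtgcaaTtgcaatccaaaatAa
The Defa-rs12 and Defa-rs10 probes differ at 6 positions, Defa-rs10 and Defa-rs7 at 10, and Defa-rs12 and Defa-rs7 at 14. A pair of beta defensin probes of separate genes, with 6 differences over 60 bases, gave unlike signals. Whether the mismatches or the RNA levels of the 2 genes part them was not tested. The Defb15 probe (chr8:23040417-23040476) was well above background on all 6 mTEC arrays and the Defb34 probe (chr8:19126406-19126465) on none.
Defb15: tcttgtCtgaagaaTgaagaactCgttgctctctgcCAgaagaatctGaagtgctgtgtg
Defb34: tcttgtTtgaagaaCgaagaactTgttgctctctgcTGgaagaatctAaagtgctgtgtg
Defb15 is known from the epididymis.

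Levels are given as the log2 of the scanner's processed signal minus the log2 of that array's 75th percentile, so 0 is the 75th percentile and each step of 1 is a doubling. A probe is called well above background by the scanner software's own flag. The number of arrays limits the precision of every value. Levels of different probes are not comparable with each other, so comparisons are made within a probe. Between 44.6% and 63.5% of all spots were above background per array, with the SIEC arrays lowest. Slide 2 held both SIEC arrays with Cdx1-/- mTEC replicate 1, and slide 1 the other 5. Of 11 measured mTEC markers 10 rose in mTEC over SIEC, and all 12 intestinal epithelial markers fell. The Cdx1 probe read 4.8, 4.98 and 5.0 in Cdx1-/- mTEC, against 5.88, 5.9 and 5.96 in Cdx1+/+ mTEC, a difference of -0.99 (SE 0.09, adjusted p = 0.00509), and no array was at background. On the SIEC arrays it read 6.48 on the array labelled Cdx1-/-, against 4.87 on the array labelled Cdx1+/+, which goes against those labels. The labels do not say whether the probe lies in the deleted part of the gene, so SIEC arrays are named by their labels only.

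Alpha defensins were detected almost completely in both tissues, and beta defensins almost wholly in mTEC. Of 24 alpha probes, 22 were well above background on each Cdx1-/- mTEC array, against 23, 22 and 22 on the Cdx1+/+ mTEC arrays (exact 2-sided permutation test, p = 1, the smallest possible being 0.1). The arrays labelled Cdx1-/- and Cdx1+/+ SIEC had 20 and 21. The 6 mTEC arrays averaged 22.2 alpha probes and the 2 SIEC arrays 20.5 (exact permutation p = 0.0714, the smallest this design allows). Of 51 beta probes, 30, 34 and 32 were well above background in Cdx1-/- mTEC, against 36, 33 and 35 in Cdx1+/+ mTEC, and these counts overlapped (means 32 and 34.7, exact permutation p = 0.2). The arrays labelled Cdx1-/- and Cdx1+/+ SIEC had 0 and 1 beta probes, so the mTEC arrays averaged 33.3 and the SIEC arrays 0.5 (exact permutation p = 0.0714). For comparison, 56.9%, 57.6% and 57.3% of all probes were well above background in Cdx1-/- mTEC, against 62%, 57.4% and 59.6% in Cdx1+/+ mTEC, and 43.4% and 45.1% on the arrays labelled Cdx1-/- and Cdx1+/+ SIEC. With the scanner's less strict flag for a positive and significant signal, the mTEC arrays averaged 40.8 beta probes and the SIEC arrays 16.5.

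**Figure D1:**
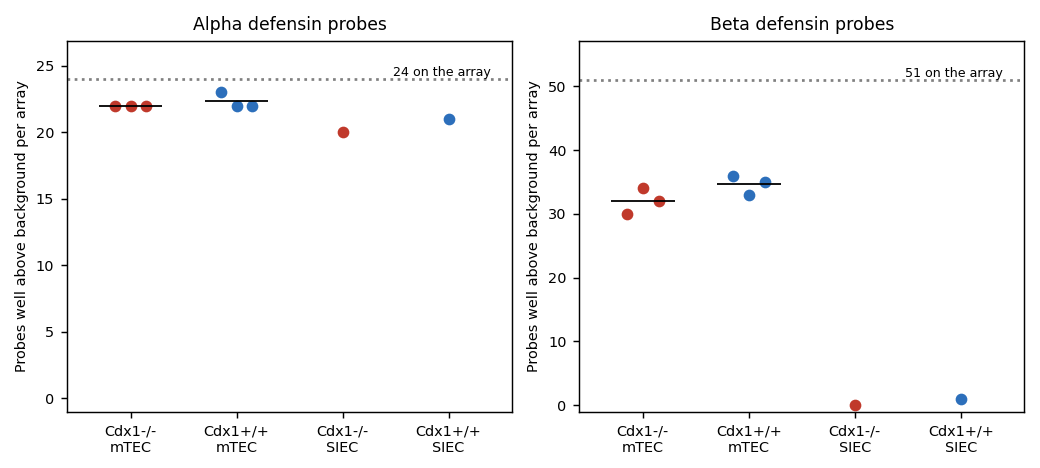
Number of alpha (left) and beta (right) defensin probes well above background on each array, by group. Each point is 1 array, black bars are means of the 3 mTEC arrays of a genotype, and the dotted line is the number of probes on the array. Beta counts were 30 to 36 on mTEC arrays and 0 or 1 on SIEC arrays.

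The alpha probes well above background on all 6 mTEC arrays were 22 probes of 15 names. The exceptions were Defa10, which was at background on all 8 arrays, and Defa-ps13, which passed on Cdx1+/+ mTEC replicate 1 alone. Of the 24 alpha probes, the files place 12 near 22 Mb of chromosome 8 and 2 (Defa-ps12 and Defa-ps13) near 19 Mb of that chromosome, inside the beta defensin block, where the reference gene table lists them under beta defensin synonyms. The other 10 have no mm9 position, and none of their accessions is in the reference gene table, against 12 of the 14 placed probes.

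Placed alpha defensins were far lower in mTEC than in SIEC. All 12 placed probes near 22 Mb fell, those named below by differences between -8.87 and -6.54 in log2, in a comparison where 82.2% of all 35226 probes tested were called and 49.5% were called lower. Defa26 read -1.05, -1.0 and -0.76 in Cdx1-/- mTEC, against -1.13, -0.91 and -0.87 in Cdx1+/+ mTEC. Its SIEC values were 7.54 on the array labelled Cdx1-/- SIEC, against 7.64 on the array labelled Cdx1+/+ SIEC, and the mTEC minus SIEC difference was -8.54 (SE 0.13, adjusted p = 4.8e-09), a 374-fold lower signal in mTEC. No mTEC array overlapped a SIEC array for Defa26. In every tissue comparison here SIEC has 1 array per label, so the spread behind SE and p comes mostly from the mTEC arrays. These values therefore say little of how SIEC pools vary. Fewer cells of a type and less RNA per cell cannot be told apart in these bulk samples.

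The other placed probes showed the same order of tissues. Defa1 probe 3 read 3.42, 3.75 and 3.74 in Cdx1-/- mTEC, against 3.78, 3.8 and 4.49 in Cdx1+/+ mTEC, with 10.62 on the array labelled Cdx1-/- SIEC, against 10.47 on the array labelled Cdx1+/+ SIEC. Defa21 read 1.7, 1.45 and 1.53 in Cdx1-/- mTEC, against 1.32, 1.39 and 0.97 in Cdx1+/+ mTEC, with 9.71 on the array labelled Cdx1-/- SIEC, against 8.93 on the array labelled Cdx1+/+ SIEC. Defa25 read -2.58, -2.22 and -1.98 in Cdx1-/- mTEC, against -1.8, -1.5 and -1.37 in Cdx1+/+ mTEC, with 4.91 on the array labelled Cdx1-/- SIEC, against 4.35 on the array labelled Cdx1+/+ SIEC. These 3 genes encode cryptdins of the chromosome 8 cluster, and the tissue differences were -6.71 (SE 0.23, adjusted p = 1.14e-07) for Defa1, -7.93 (SE 0.17, adjusted p = 1.24e-08) for Defa21 and -6.54 (SE 0.3, adjusted p = 4.78e-07) for Defa25. Defa3 probe 1 read 0.99, 1.76 and 1.8 in Cdx1-/- mTEC, against 1.71, 1.78 and 2.62 in Cdx1+/+ mTEC, with 9.79 on the array labelled Cdx1-/- SIEC, against 9.8 on the array labelled Cdx1+/+ SIEC. Defa3 probe 2 read 2.55, 2.76 and 2.76 in Cdx1-/- mTEC, against 2.94, 2.78 and 3.55 in Cdx1+/+ mTEC, with 10.26 on the array labelled Cdx1-/- SIEC, against 9.95 on the array labelled Cdx1+/+ SIEC. Defa3 probe 3 read 3.0, 3.66 and 3.78 in Cdx1-/- mTEC, against 3.34, 3.48 and 4.16 in Cdx1+/+ mTEC, with 10.81 on the array labelled Cdx1-/- SIEC, against 10.71 on the array labelled Cdx1+/+ SIEC. Both SIEC arrays lay above all mTEC arrays for each Defa3 probe, and the differences were -8.02, -7.22 and -7.19. Defa23 probe 1 read -0.98, -0.39 and -0.21 in Cdx1-/- mTEC, against -0.28, -0.05 and 0.42 in Cdx1+/+ mTEC, with 8.68 on the array labelled Cdx1-/- SIEC, against 8.55 on the array labelled Cdx1+/+ SIEC. Defa23 probe 2 read 2.92, 3.27 and 3.17 in Cdx1-/- mTEC, against 3.33, 3.28 and 4.08 in Cdx1+/+ mTEC, with 10.98 on the array labelled Cdx1-/- SIEC, against 10.55 on the array labelled Cdx1+/+ SIEC. The 2 probes of Defa23, another cryptdin gene, differed between tissues by -8.87 and -7.43. Defa-ps1, a pseudogene, read -0.94, -0.48 and -0.37 in Cdx1-/- mTEC, against -0.63, -0.4 and -0.27 in Cdx1+/+ mTEC, with 7.87 on the array labelled Cdx1-/- SIEC, against 7.61 on the array labelled Cdx1+/+ SIEC. Defa-rs2 probe 2 read -0.05, 0.95 and 1.06 in Cdx1-/- mTEC, against 0.67, 0.87 and 1.48 in Cdx1+/+ mTEC. These 2 probes differed by -8.25 and -8.09, and for each placed probe of the 22 Mb block both SIEC arrays were above every mTEC array. Defa-ps12 went the other way. It read -3.91, -3.66 and -3.57 in Cdx1-/- mTEC, against -3.83, -3.87 and -3.54 in Cdx1+/+ mTEC, was at background on both SIEC arrays, and was at least 1.04-fold higher in mTEC, adjusted p = 1.68e-05, but with normexp background correction its difference turned to -0.35 and did not pass. A group in which no array rose well above background for a probe allows only a bound. The fold is then written "at least", with the brighter group's mean set over the dim group's, each dim array counted at its faintest detectable probe or at the probe's reading, whichever is larger.

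Most unplaced alpha probes differed widely between the 2 SIEC arrays, and no placed one did. Of the 9 unplaced probes measured, 7 were at least 8-fold lower on the array labelled Cdx1-/- SIEC, by -11.12 to -3.87 in log2, while the 13 measured placed probes differed by -0.09 to 0.78. Over all 26152 probes well above background on a SIEC array, 0.509% were at least 8-fold lower, 0.405% at least 8-fold higher and 9.28% at least 2-fold apart either way, and the median difference was -0.04. There is 1 array per label, so these differences have no replicate check and no test. Normexp background correction, quantile normalization and the authors' scaling also gave 7 of 9 unplaced and 0 of 13 placed probes at least 8-fold lower.

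Defa4, cryptdin-4, read -5.35 on the array labelled Cdx1-/- SIEC, against 5.78 on the array labelled Cdx1+/+ SIEC. It was not well above background on the array labelled Cdx1-/- SIEC, so it was at least 647-fold lower there. Its partner in the first sequence pair, Defa23 probe 1, differed by 0.13 between the same arrays. Defa-rs4 read 0.49 on the array labelled Cdx1-/- SIEC, against 9.44 on the array labelled Cdx1+/+ SIEC, a difference of -8.95. Defa-rs12 read -1.41 on the array labelled Cdx1-/- SIEC, against 7.38 on the array labelled Cdx1+/+ SIEC, a difference of -8.79. The names beginning Defa-rs are defensin related sequences, similar to the cryptdins in their first part. Defa-rs2 probe 1, which has no position, read 1.4 on the array labelled Cdx1-/- SIEC, against 9.85 on the array labelled Cdx1+/+ SIEC. Defa-rs2 probe 2, which has one (chr8:22274401-22274460), read 8.96 on the array labelled Cdx1-/- SIEC, against 8.87 on the array labelled Cdx1+/+ SIEC. The 2 probes of this name thus disagreed, with differences of -8.45 and 0.09. Defa-rs7 probe 2 read 0.98 on the array labelled Cdx1-/- SIEC, against 8.52 on the array labelled Cdx1+/+ SIEC. Defa-rs10 read 4.9 on the array labelled Cdx1-/- SIEC, against 9.16 on the array labelled Cdx1+/+ SIEC. Defa-rs7 probe 1 read 5.71 on the array labelled Cdx1-/- SIEC, against 9.58 on the array labelled Cdx1+/+ SIEC. The last 2 of these, which share a sequence set with Defa-rs12, had the smallest differences of the 7, -4.26 and -3.87. Every probe of the 7 except Defa4 was well above background on both SIEC arrays.

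The 2 unplaced probes that did not differ in this way were both named Defa1. Defa1 probe 1 read 9.92 on the array labelled Cdx1-/- SIEC, against 9.71 on the array labelled Cdx1+/+ SIEC. Defa1 probe 2 read 8.97 on the array labelled Cdx1-/- SIEC, against 9.64 on the array labelled Cdx1+/+ SIEC. Each has a close placed copy among the probes, with 1 mismatch over 53 aligned bases for probe 1 and 4 over 56 for probe 2. Of the 7 unplaced probes that were lower, Defa-rs7 probe 2 and Defa4 have a placed partner with 6 mismatches over 45 and 9 over 51 aligned bases. The other 5 have no placed partner by the same ungapped alignment. The labels do not say which strain's alpha defensin locus each pool carried, and its part in the difference was not tested. The summed signal of Paneth cell markers, over 5 measured markers and in units of the array's 75th percentile, was 2130 on the array labelled Cdx1-/- SIEC and 2010 on the array labelled Cdx1+/+ SIEC. Sums of this kind, here and below, add signals of different probes and are set mostly by the brightest. They do not measure cell content. In this sum Reg3g and Itln1 were the brightest on both SIEC arrays. The granule lysozyme Lyz1 differed by 0.27, the lectins Reg3g and Itln1 by 0.17 and 0.13, Mmp7 by -0.23 and Ang4 by -0.82, and the granule gene Pnliprp2, outside the marker list, by -1.91. Sums over 12 intestinal epithelial, 6 goblet cell and 8 T cell markers were higher on the array labelled Cdx1-/- SIEC, at 3340, 2510 and 36, against 1940, 1790 and 13 on the array labelled Cdx1+/+ SIEC. Retnlb, a goblet cell gene, differed by -3.98 while Zg16, Clca1, Fcgbp, Tff3 and Muc2 of that list differed by 0.91, 0.37, 0.34, 0.25 and -0.29. The sum over 10 neutrophil and macrophage markers was 68.4 on the array labelled Cdx1-/- SIEC, against 34.8 on the array labelled Cdx1+/+ SIEC. Their part in the difference was not tested.

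**Figure D2:**
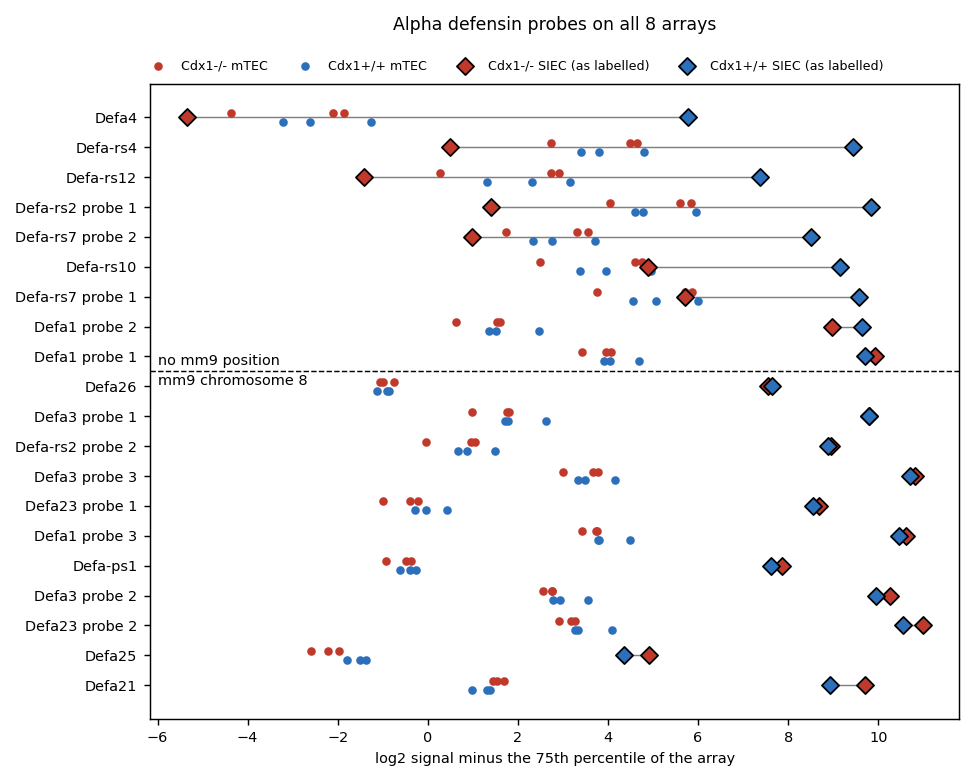
Level of 20 alpha defensin probes on all 8 arrays, as log2 signal minus the array's 75th percentile. Small circles are mTEC arrays and diamonds the 2 SIEC arrays, joined by a line. Of the 9 probes above the dashed line, which have no mm9 position, 7 differ between the SIEC arrays by -11.12 to -3.87 (the array labelled Cdx1-/- lower), and the 11 placed probes below it have SIEC values within 0.78 of each other.

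The same 7 unplaced probes spread most widely of the alpha probes among the mTEC arrays, in both genotypes. Defa-rs10 read 2.5, 4.61 and 4.76 in Cdx1-/- mTEC, against 3.37, 3.96 and 4.96 in Cdx1+/+ mTEC. Defa-rs12 read 0.28, 2.73 and 2.91 in Cdx1-/- mTEC, against 1.3, 2.32 and 3.15 in Cdx1+/+ mTEC. Defa4 read -4.37, -1.86 and -2.11 in Cdx1-/- mTEC, against -2.62, -3.21 and -1.27 in Cdx1+/+ mTEC. The genotypes overlapped for each of the 7, and in each Cdx1-/- replicate 1 was the lowest of the 6 arrays and Cdx1+/+ replicate 3 the highest. The range over the mTEC arrays was 1.92 to 3.1 (median 2.25) for these probes, 1.27 and 1.84 for the unplaced Defa1 probes and 0.37 to 1.63 (median 1.11) for the 12 placed probes. Among the 12 placed probes, 10 also had their lowest value on Cdx1-/- replicate 1 and 10 their highest on Cdx1+/+ replicate 3. Defa-rs2 probe 1 read 4.04, 5.61 and 5.84 in Cdx1-/- mTEC, against 4.6, 4.77 and 5.96 in Cdx1+/+ mTEC. Defa-rs4 read 2.73, 4.49 and 4.65 in Cdx1-/- mTEC, against 3.4, 3.8 and 4.81 in Cdx1+/+ mTEC. Defa-rs7 probe 1 read 3.75, 5.7 and 5.87 in Cdx1-/- mTEC, against 4.56, 5.06 and 6.0 in Cdx1+/+ mTEC. In each of these 3, Cdx1-/- replicates 2 and 3 lay between the 2 highest Cdx1+/+ values. Defa-rs7 probe 2 read 1.73, 3.31 and 3.55 in Cdx1-/- mTEC, against 2.34, 2.75 and 3.72 in Cdx1+/+ mTEC. Defa1 probe 1 read 3.42, 4.06 and 3.95 in Cdx1-/- mTEC, against 4.04, 3.9 and 4.69 in Cdx1+/+ mTEC. Defa1 probe 2 read 0.63, 1.52 and 1.61 in Cdx1-/- mTEC, against 1.52, 1.36 and 2.47 in Cdx1+/+ mTEC. For 5 of the 7 probes the array labelled Cdx1-/- SIEC was below every mTEC array, so the tissue comparison depends on which SIEC array is used. With the arrays of both labels, 4 of 9 unplaced probes fell in mTEC (Defa-rs10, Defa-rs7 probe 1 and both Defa1 probes) and 5 did not pass. Of all 35226 probes tested between tissues, 49.5% were called lower, so this count does not set the unplaced probes apart. Defa-rs10 and Defa-rs7 probe 1 lost the call with quantile normalization, with slide as a block and without the array labelled Cdx1+/+ SIEC, and were called under 15 and 12 of 18 settings. Without the array labelled Cdx1-/- SIEC, the tissue differences of Defa-rs2 probe 1, Defa-rs4 and Defa-rs12 were -4.74, -5.44 and -5.12. Without the array labelled Cdx1+/+ SIEC they were 3.77, 3.46 and 3.38. Each of these fits left 1 SIEC array, so only the size of the difference is given. Over all alternatives the adjusted p of these 3 ran from 0.00134 to 0.953, 0.000787 to 0.879 and 0.00214 to 0.842.

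Loss of Cdx1 left no alpha probe past the test in mTEC. Of 22 alpha probes tested 0 were called by limma at an adjusted p under 0.05 and 2 had an unadjusted p under 0.05, in a comparison where 10.5% of 33520 probes were called, 5.2% higher and 5.3% lower. The median difference of the 22 was -0.31, against 0.00 for all probes tested, and 18 of the 22 differences were below 0. Near copies share signal, so these are not 22 separate observations. For every unplaced probe tested, and for 10 of the 12 placed near 22 Mb, Cdx1-/- replicate 1 was the lowest mTEC array. Cdx1+/+ replicate 3 was the highest in the same numbers. Arrays of the genotypes lay fully apart for 4 lower and 1 higher alpha probes, where 16.7% and 19.7% of all probes did so. Defa25 had the lowest p. The values given above for it parted the genotypes, and the difference was -0.71 (SE 0.19, adjusted p = 0.0596). With the replicate number as a block, Defa25 passed (adjusted p = 0.0278) and so did Defa23 probe 1 (-0.56, adjusted p = 0.0477), for 2 alpha probes lower and 0 higher. Over the alternatives the adjusted p ran from 0.0278 to 0.163 for Defa25 and from 0.0477 to 0.424 for Defa23 probe 1. Defa21 lay the other way at 0.33 (SE 0.14, adjusted p = 0.171). Defa23 probe 2 differed by -0.45 (SE 0.23, adjusted p = 0.25). The Defa3 probes differed by -0.52, -0.4 and -0.18 and Defa1 probe 3 by -0.39, none past the test. The summed signal of 5 Paneth cell markers was 127 to 154 in Cdx1-/- mTEC, against 137 to 176 in Cdx1+/+ mTEC, and 1 of the 5 was called lower (Ang4), a difference whose part in the alpha defensin values was not tested.

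Beta defensin probes of a chromosome 2 cluster were lower in Cdx1-/- mTEC, and most of them passed the test as reported. The number that passed fell from 8, Defb20 included, to as few as 3 under the alternatives given below. Of 35 beta probes tested 9 were called, all of them lower and none higher, against 5.3% called lower among all probes. With the replicate number as a block 10 were called, 8 lower and 2 higher (Defb33 and Defb30 probe 1), and Defb28 probe 1 did not pass (adjusted p = 0.0506, with 0.026 to 0.11 over the alternatives). With no filter on dim probes 3 of 51 were called, all lower. Of the 9, 8 belonged to the 13 tested probes of the cluster (chr2:152285053-152448152, mm9), which is known for genes expressed in the epididymis. Defb20 and Defb26 were above background in Cdx1+/+ alone and passed the filter through that genotype, so they had to be lower and are left out of the next counts. Of the other 11 probes 7 were called lower, all 11 differences were below 0, their median was -0.52, and the genotypes lay fully apart, lower in Cdx1-/-, for 9, against 16.7% of all probes. Of the 22 beta probes tested elsewhere 1 was called, lower, with 13 differences below 0, 9 above and a median of -0.07.

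Defb19, a beta defensin of the male reproductive tract, read 1.2, 1.34 and 1.43 in Cdx1-/- mTEC, against 2.3, 2.27 and 2.31 in Cdx1+/+ mTEC. The groups did not overlap. The difference was -0.97 (SE 0.09, adjusted p = 0.00514), a 1.96-fold lower signal (chr2:152401915-152401974). Defb36 was measured by 2 probes. Probe 2 (chr2:152438270-152438329) read -2.0, -1.99 and -2.0 in Cdx1-/- mTEC, against -0.8, -1.1 and -0.68 in Cdx1+/+ mTEC, a difference of -1.14 (SE 0.12, adjusted p = 0.00683). Probe 1 read -3.35, -2.99 and -3.49 in Cdx1-/- mTEC, against -2.27, -2.29 and -1.93 in Cdx1+/+ mTEC, a difference of -1.11 (SE 0.17, adjusted p = 0.014). Both probes put every Cdx1-/- array below every Cdx1+/+ array, at 2.20-fold and 2.16-fold lower. Defb23, one of the epididymal genes of the cluster, read -1.37, -1.47 and -1.55 in Cdx1-/- mTEC, against -0.7, -0.66 and -0.4 in Cdx1+/+ mTEC. Its difference was -0.88 (SE 0.12, adjusted p = 0.0104), 1.83-fold lower without overlap (chr2:152285053-152285112).

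Defb20 (chr2:152305122-152305181) read -5.62, -5.94 and -5.18 in Cdx1-/- mTEC, against -4.38, -4.38 and -4.47 in Cdx1+/+ mTEC. It was well above background on the 3 Cdx1+/+ arrays and on no Cdx1-/- array, so it was at least 1.32-fold lower in Cdx1-/- mTEC. Having passed the filter through Cdx1+/+ alone, it had to be lower, so nothing is read from its call (adjusted p = 0.0168). With no filter on dim probes it did not pass (adjusted p = 0.0604, with 0.0111 to 0.419 over the alternatives). Defb28 had 2 probes. Probe 1 (chr2:152345796-152345855) read -2.05, -1.94 and -1.9 in Cdx1-/- mTEC, against -1.42, -1.62 and -1.36 in Cdx1+/+ mTEC, a difference of -0.5 (SE 0.1, adjusted p = 0.0336). Probe 2 (chr2:152347124-152347183) read -0.03, -0.04 and 0.07 in Cdx1-/- mTEC, against 0.65, 0.3 and 0.75 in Cdx1+/+ mTEC, a difference of -0.57 (SE 0.13, adjusted p = 0.0448). Both probes parted the genotypes, at 1.41-fold and 1.48-fold. Defb45 probe 1 (chr2:152419048-152419107) read 0.51, 0.43 and 0.61 in Cdx1-/- mTEC, against 1.05, 0.92 and 1.15 in Cdx1+/+ mTEC, a difference of -0.52 (SE 0.1, adjusted p = 0.0267). Defb45 probe 2 read 0.44, 0.49 and 0.59 in Cdx1-/- mTEC, against 0.81, 0.73 and 1.11 in Cdx1+/+ mTEC, a difference of -0.38 (SE 0.12, adjusted p = 0.102), so its direction was that of probe 1 but it did not pass.

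The remaining genes of the cluster did not pass the test. Defb26, whose loss together with that of other beta defensins is known to impair mouse sperm, read -5.29, -5.28 and -5.28 in Cdx1-/- mTEC, against -4.49, -5.01 and -4.73 in Cdx1+/+ mTEC. It was well above background on 2 Cdx1+/+ arrays and no Cdx1-/- array, at least 1.05-fold lower in Cdx1-/- mTEC (adjusted p = 0.0592). Defb29 read -1.9, -2.0 and -1.55 in Cdx1-/- mTEC, against -1.4, -1.55 and -1.38 in Cdx1+/+ mTEC, a difference of -0.37 (SE 0.14, adjusted p = 0.13). Defb22, which encodes a protein of the sperm surface, read -3.65, -3.62 and -2.45 in Cdx1-/- mTEC, against -2.92, -3.1 and -3.0 in Cdx1+/+ mTEC, a difference of -0.23 (SE 0.32, adjusted p = 0.665), with overlapping groups. Defb25 read 1.14, 1.26 and 1.36 in Cdx1-/- mTEC, against 1.31, 1.41 and 1.45 in Cdx1+/+ mTEC, also overlapping, with -0.14 (SE 0.1, adjusted p = 0.399). Defb21 was well above background on 1 array and was not tested.

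**Figure D3:**
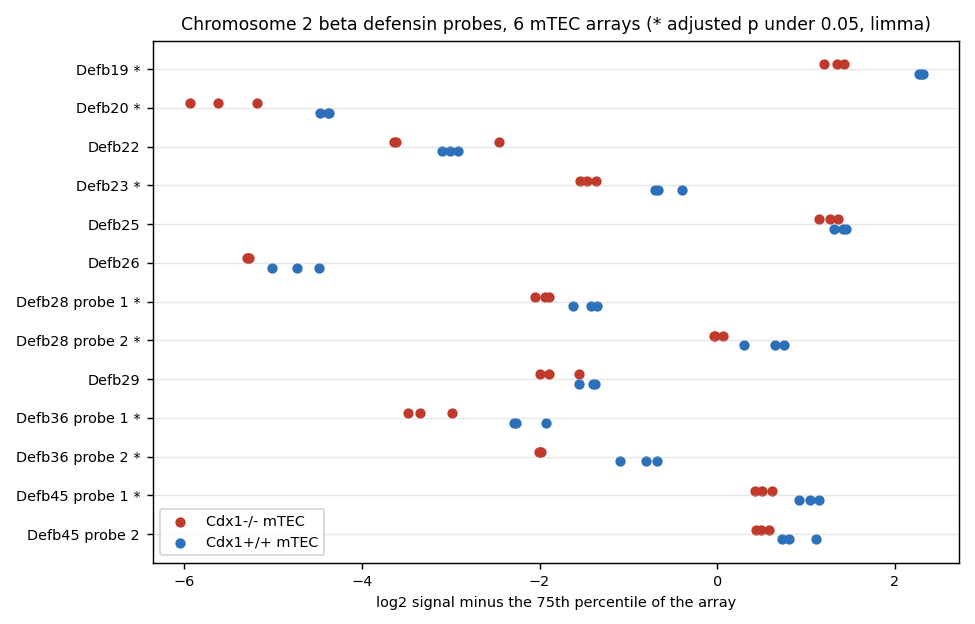
Level of the 13 tested beta defensin probes of the chromosome 2 cluster on each mTEC array, as log2 signal minus the array's 75th percentile. Red points are the 3 Cdx1-/- arrays and blue points the 3 Cdx1+/+ arrays. Defb20 and Defb26 passed the filter through Cdx1+/+ alone and had to be lower. The red points lie left of all blue points in 9 of the other 11 probes, the exceptions being Defb22 and Defb25.

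Few probes of other genes beside the cluster were called. Within 500 kb on either side, 53 non-defensin probes were tested, and their median difference was 0.09. Of them 0 were called lower and 1 higher (1 of the 2 Fam110a probes, 0.41, adjusted p = 0.0461). Among all probes 5.3% were called lower and 5.2% higher. Several genes have more than 1 probe among the 53, so these are not independent. Whether the difference is confined to the cluster was not tested. The count of 8 cluster probes, which includes Defb20, rests partly on single arrays. It was 5 without Cdx1-/- replicate 1, which is also the value within slide 1 and with slide as a block. It was 5 without Cdx1-/- replicate 2, 4 without Cdx1+/+ replicate 1 and 3 without Cdx1+/+ replicate 3. The differences of all cluster probes tested were below 0 under each alternative run. Nothing is read from those of Defb20 and Defb26, which passed the filter through Cdx1+/+ alone. Defb19, Defb23 and Defb36 probe 2 were called under all 16 settings, the reported one included, with differences of -1.06 to -0.89, -0.93 to -0.72 and -1.26 to -0.88. Counted the same way, Defb36 probe 1 was called under 13 of 15 settings, Defb20 under 11 of 16, Defb45 probe 1 under 8 of 16, Defb28 probe 2 under 6 of 16 and Defb28 probe 1 under 5 of 15. Slide as a block, within slide 1 and without Cdx1-/- replicate 1 are the same fit in mTEC. These tallies, and that of Defb47 below, therefore count 1 fit more than once. With normexp background correction the difference was -0.27 for Defb20 and -0.63 for Defb36 probe 1. Some sums of cell type markers also differed between the mTEC genotypes. The summed signal of 12 small intestine epithelial markers was 34.7 to 36.9 in Cdx1-/- mTEC, against 55.4 to 58.4 in Cdx1+/+ mTEC, and 8 of the 12 were called lower. That of 10 neutrophil and macrophage markers was 140 to 154, against 168 to 199. The only one of the 10 that was called, Lyz2, went the other way and was higher in Cdx1-/- mTEC. For 8 thymocyte and T cell markers it was 10.2 to 13.3, against 11.2 to 15.3, and for 11 mTEC markers 583 to 806, against 655 to 951, both overlapping. Every marker named in these sums was well above background on all 6 mTEC arrays. Their part in the defensin differences was not tested.

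Because Cdx1 is a DNA-binding factor, the promoters of the members were searched for the CDX motifs CCATAAA and CAATAAA on both strands, in windows of 300 bases that run mostly before the start (RefSeq, GRCm38.p6). Promoters were matched for 9 of the 11 gene names of the chromosome 2 cluster, 10 promoters in all, and 2 of them (20%) held a motif, against 7.2% of the 32851 promoters in the table. The 2 are Defb23 and Defb26, with 1 match each and so no overlapping matches. The Defb23 promoter (chr2:152464571-152464870 of GRCm38.p6, minus strand, 5′ to 3′) is shown with the motif in capitals, since this gene passed the test.
Defb23 promoter: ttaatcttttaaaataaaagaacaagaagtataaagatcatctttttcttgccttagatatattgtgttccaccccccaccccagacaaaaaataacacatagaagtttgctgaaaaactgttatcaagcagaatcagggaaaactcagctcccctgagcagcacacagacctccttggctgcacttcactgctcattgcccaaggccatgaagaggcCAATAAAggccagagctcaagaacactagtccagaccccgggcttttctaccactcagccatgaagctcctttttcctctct
The promoters of the other cluster genes that passed the test and were matched held none of these letters in this window. Among all 30 matched beta promoters 3 held a motif, the last being Defb11, and neither of the 2 matched alpha promoters did. A match is a description of the letters and not a site.

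Outside chromosome 2, Defb47 on chromosome 14 was the only other beta probe called. It read -4.23, -4.17 and -4.14 in Cdx1-/- mTEC, against -3.6, -3.71 and -3.61 in Cdx1+/+ mTEC, a difference of -0.54 (SE 0.08, adjusted p = 0.0155) without overlap (chr14:63619810-63619869). The other chromosome 14 probes did not pass. Defb30 had 4 probes, of which 3 were tested. Probe 1 read -2.75, -3.48 and -2.83 in Cdx1-/- mTEC, against -3.45, -4.16 and -3.56 in Cdx1+/+ mTEC. Probe 3 read -3.21, -2.84 and -3.15 in Cdx1-/- mTEC, against -3.27, -3.71 and -3.16 in Cdx1+/+ mTEC. Probe 4 read -1.31, -1.29 and -1.23 in Cdx1-/- mTEC, against -1.59, -1.45 and -1.5 in Cdx1+/+ mTEC. Only probe 4 parted the genotypes, higher in Cdx1-/-. The differences were 0.7 (SE 0.26, adjusted p = 0.133), 0.32 (SE 0.18, adjusted p = 0.285) and 0.23 (SE 0.09, adjusted p = 0.127). Defb42, known from the epididymis, read -2.28, -2.42 and -2.07 in Cdx1-/- mTEC, against -2.45, -2.34 and -2.29 in Cdx1+/+ mTEC on probe 1. On probe 2 it read 2.47, 2.27 and 2.62 in Cdx1-/- mTEC, against 2.31, 2.08 and 2.26 in Cdx1+/+ mTEC. Both probes of Defb42 overlapped between genotypes, with 0.11 and 0.24. Defb48 read -2.94, -3.36 and -2.74 in Cdx1-/- mTEC, against -2.32, -3.23 and -3.17 in Cdx1+/+ mTEC, also overlapping, a difference of -0.11 (SE 0.28, adjusted p = 0.828). Defb33, placed on an unassigned piece of chromosome 8, read -3.5, -3.03 and -2.87 in Cdx1-/- mTEC, against -3.93, -3.62 and -3.69 in Cdx1+/+ mTEC. Its groups did not overlap, and its difference was 0.61 (SE 0.18, adjusted p = 0.0813). With the replicate number as a block the adjusted p was 0.0429 for Defb33 and 0.0267 for Defb30 probe 1. Within slide 1, and so without Cdx1-/- replicate 1, Defb33 passed at 0.80 (adjusted p = 0.0376). Over the alternatives the adjusted p ran from 0.0376 to 0.461 for Defb33 and from 0.0267 to 0.291 for Defb30 probe 1. The call of Defb47 held under 12 of 16 settings, the reported one included, and its difference was -0.21 with normexp background correction.

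The epithelial beta defensins of chromosome 8 did not pass the genotype test. Defb6 read 4.77, 4.92 and 5.14 in Cdx1-/- mTEC, against 4.59, 4.71 and 4.69 in Cdx1+/+ mTEC, a difference of 0.28 (SE 0.12, adjusted p = 0.168) with the groups apart. Defb14, the counterpart of a human skin beta defensin and a ligand of Ccr6, read -0.26, -0.31 and -0.11 in Cdx1-/- mTEC, against 0.1, -0.18 and 0.07 in Cdx1+/+ mTEC, a difference of -0.22 (SE 0.11, adjusted p = 0.241). Defb1, made constitutively by kidney and airway, read -0.31, 0.27 and 0.41 in Cdx1-/- mTEC, against -0.22, -0.55 and 0.27 in Cdx1+/+ mTEC, a difference of 0.29 (SE 0.26, adjusted p = 0.499). Of these 3 only Defb6 had groups that did not overlap. Defb4, an inducible airway and skin defensin, read -5.35, -4.35 and -4.12 in Cdx1-/- mTEC, against -3.81, -3.55 and -4.29 in Cdx1+/+ mTEC, a difference of -0.73 (SE 0.35, adjusted p = 0.22), and was above background on 5 of 6 mTEC arrays. Defb3 read -1.46, -1.19 and -0.92 in Cdx1-/- mTEC, against -0.82, -0.96 and -0.78 in Cdx1+/+ mTEC. Defb5 read -0.47, -0.38 and -0.24 in Cdx1-/- mTEC, against -0.42, -0.48 and -0.07 in Cdx1+/+ mTEC. Neither parted the genotypes, with -0.33 (SE 0.15, adjusted p = 0.195) and -0.04 (SE 0.14, adjusted p = 0.875). Defb46 read -2.05, -2.35 and -2.28 in Cdx1-/- mTEC, against -2.03, -1.99 and -1.92 in Cdx1+/+ mTEC, a difference of -0.25 (SE 0.11, adjusted p = 0.178). Defb15 read -2.92, -3.34 and -2.99 in Cdx1-/- mTEC, against -2.77, -2.78 and -2.78 in Cdx1+/+ mTEC, a difference of -0.31 (SE 0.13, adjusted p = 0.167). Both of these parted the genotypes, lower in Cdx1-/-. Defb50 read -2.21, -1.99 and -2.16 in Cdx1-/- mTEC, against -1.75, -2.1 and -1.43 in Cdx1+/+ mTEC, Defb2 read -3.28, -2.96 and -3.15 in Cdx1-/- mTEC, against -3.05, -2.81 and -2.86 in Cdx1+/+ mTEC, and both overlapped. Overlap was also found for the next pair. Defb8 read -0.54, -0.86 and -0.8 in Cdx1-/- mTEC, against -0.46, -0.35 and -0.82 in Cdx1+/+ mTEC. Defb41, a chromosome 1 gene known from the epididymis, read -3.4, -2.89 and -2.84 in Cdx1-/- mTEC, against -3.62, -3.46 and -2.49 in Cdx1+/+ mTEC. Defb50, Defb2, Defb8 and Defb41 differed by -0.36, -0.22, -0.19 and 0.14, with adjusted p of 0.234 or more by limma. Defb11 and Defb7, above background on 5 and 3 of 6 arrays, differed by -0.14 and -0.01.

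**Figure D4:**
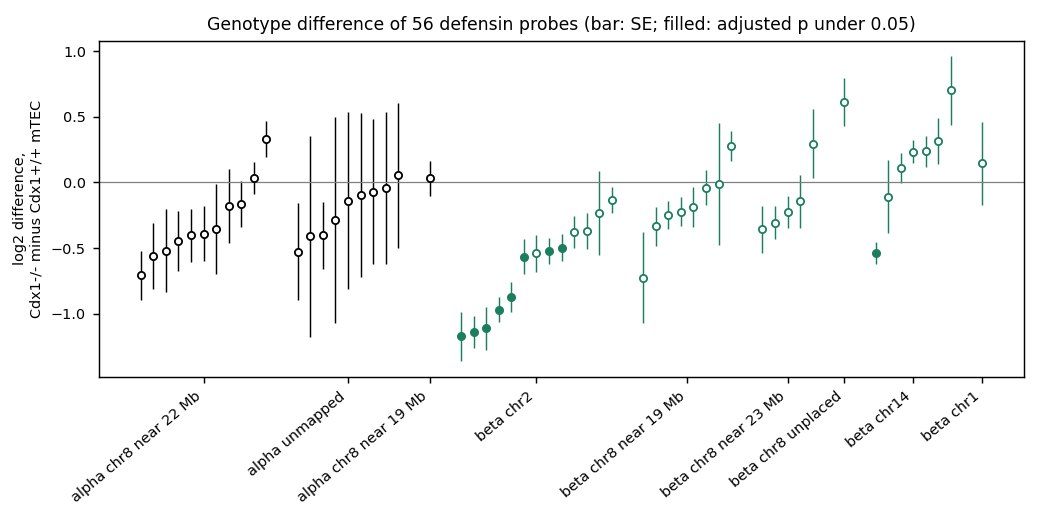
Difference of 56 tested defensin probes between genotypes in mTEC, as log2 Cdx1-/- minus Cdx1+/+, grouped by class and mm9 location. Bars are standard errors and filled points have an adjusted p under 0.05 by limma. The 13 chromosome 2 beta probes lie between -1.17 and -0.14 with 8 filled. Defb20, which is filled, and Defb26 passed the filter through Cdx1+/+ alone. Of the 9 unplaced alpha probes 7 have the longest bars.

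Beta defensins, in contrast to the placed alpha defensins, had their signal in mTEC. Neither SIEC array was well above background for any beta probe except Defb36 probe 2, which passed on the array labelled Cdx1+/+. Folds over SIEC are therefore bounds, which were above 1 for 28 probes and at least 10 for 10 of them. Probes well above background on all 6 mTEC arrays numbered 30, of 24 names. At the other end, 14 beta probes were above background on no array, among them every probe of 12 names. Limma called 31 of 35 beta probes higher and none lower, where 32.7% of all 35226 probes were called higher. But 34 of the 35 passed the filter through mTEC alone, so the filter itself favoured a higher value in mTEC. Nothing is read from that count, nor from the calls of those 34 probes named below. With normexp background correction 20 of the 35 were called higher and 5 lower, and with no filter 31 of 51 higher and 12 lower. The median difference of all probes tested was -0.46 and lay between -0.93 and -0.21 under other scalings.

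Defb6 was at least 386-fold higher in mTEC, with an mTEC range of 4.59 to 5.14 and both SIEC arrays not well above background, a fitted difference of 10.2 (SE 0.24). Defb42 probe 2 ranged over 2.08 to 2.62 in mTEC and was at least 69.7-fold higher, a fitted difference of 7.78 (SE 0.18). Defb42 probe 1 gave at least 2.79-fold. The bound depends on how far a probe's mTEC signal lies above the dimmest detectable signal, so it does not rank the genes. Defb19 was at least 48.4-fold higher, Defb25 at least 34.6-fold and Defb45 at least 23.7-fold and 22.3-fold on its 2 probes. Defb28 probe 2 was at least 16.8-fold higher, Defb14 at least 12.8-fold, Defb1 at least 12.5-fold and Defb5 at least 10.9-fold. Bounds under 10 were found for Defb8 (8.87), Defb3 (6.81), Defb23 (6.79), Defb30 probe 4 (5.26), Defb29 (4.47), Defb28 probe 1 (4.21), Defb50 (3.6) and Defb46 (3.22). Defb41, Defb2, Defb15, Defb33, Defb48, Defb22, Defb30 probes 1 and 3 and Defb36 probe 1 were called higher with bounds of 1.27 to 2.1. None of these 9 probes was called with normexp, where Defb41, Defb33, Defb22, Defb30 probe 3 and Defb36 probe 1 turned to -0.12, -0.24, -0.18, -0.13 and -0.05. Defb22, Defb36 probe 1 and Defb4 also lost the call with slide as a block and without the array labelled Cdx1+/+ SIEC. Defb4 and Defb47 were called higher as reported here too, but their bounds allow no fold above 1, and with normexp their differences turned to -0.53 and -0.33.

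Tested and not called between tissues were Defb20 at 0.56 (SE 0.35, adjusted p = 0.167), Defb26 at 0.31 (SE 0.19, adjusted p = 0.169), Defb11 at 0.42 (SE 0.44, adjusted p = 0.392) and Defb7 at -0.2 (SE 0.56, adjusted p = 0.755). Each was well above background on 2 to 5 of the 6 mTEC arrays. Defb36 probe 2 read -4.02 on the array labelled Cdx1-/- SIEC, against -3.09 on the array labelled Cdx1+/+ SIEC, with an mTEC range of -2.0 to -0.68, a difference of 2.12 (SE 0.14, adjusted p = 3.16e-06). Defb21 and Defb37 were above background on 1 mTEC array each and were not tested. Of the beta names at background throughout, Defb12, Defb13, Defb35 and Defb18 are known from the epididymis. Both SIEC arrays share a slide with Cdx1-/- mTEC replicate 1, and within that slide the mTEC array differed from the SIEC mean by 10.17 for Defb6 and by -8.64 for Defa26.

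**Figure D5:**
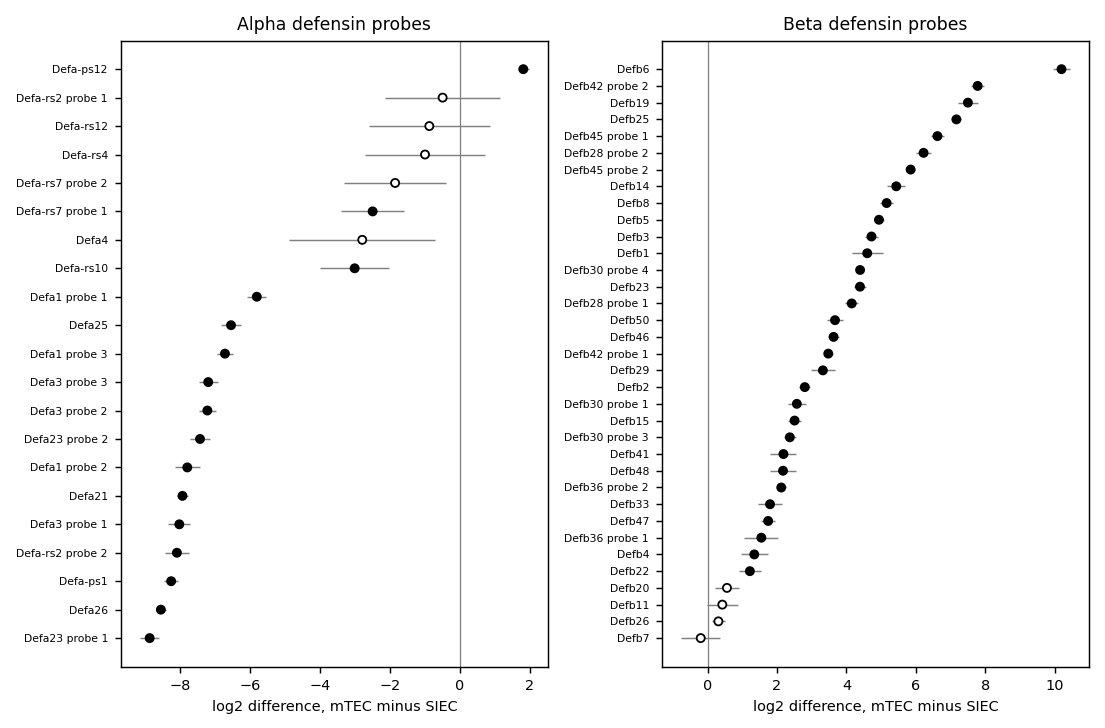
Difference between tissues for 21 alpha (left) and 35 beta (right) probes tested, as log2 mTEC minus SIEC with standard errors. Filled points have an adjusted p under 0.05 by limma, but 34 of the 35 beta probes passed the filter through mTEC alone. Alpha differences run from -8.87 to 1.82 and beta differences from -0.2 to 10.2, and the open alpha points with long bars are unplaced probes.

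Some genes that accompany alpha defensins were lower in Cdx1-/- mTEC, and Mmp7, which processes them, was not. The list of Paneth granule and processing genes used here is broad and is not limited to granule proteins. Of its 15 tested genes 4 were lower in Cdx1-/- mTEC and none higher, with a median of -0.24, where 5.3% of all probes were called lower and 5.2% higher. They were the peptide hormone precursor Guca2a at -1.19 (SE 0.15, adjusted p = 0.00886), the lectin Reg3b at -0.6 (SE 0.12, adjusted p = 0.0292), the ribonuclease Ang4 at -0.51 (SE 0.11, adjusted p = 0.0353) and the protease Habp2 at -0.65 (SE 0.16, adjusted p = 0.0469). Mmp7, the protease that activates cryptdins, read 2.6, 2.52 and 2.6 in Cdx1-/- mTEC, against 2.6, 2.55 and 2.48 in Cdx1+/+ mTEC, with overlap and a difference of 0.03 (SE 0.08, adjusted p = 0.842). Against SIEC, 14 of the 15 were lower in mTEC, where 49.5% of all probes were called lower, Mmp7 by -3.56 (adjusted p = 6.63e-08). Of 14 tested Paneth cell regulators 1 fell and 0 rose, near the 5.3% and 5.2% of all probes, the nuclear receptor Hnf4a at -1.2 (SE 0.09, adjusted p = 0.00293). The Wnt effector Tcf7l2 gave -0.59 (adjusted p = 0.0616), the bacterial sensor Nod2 -0.48 (adjusted p = 0.0639) and the transcription factor Gfi1 -0.56 (adjusted p = 0.0788), none past the test. Cdx2, the intestinal paralog of Cdx1, fell by 0.84 (SE 0.13, adjusted p = 0.0146) in Cdx1-/- mTEC.

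Of 10 tested defensin receptors and sensors 2 rose and none fell, against 5.2% and 5.3% of all probes. Ccr6, the chemokine receptor bound by beta defensins, read 3.53, 3.36 and 3.26 in Cdx1-/- mTEC, against 2.77, 2.67 and 2.75 in Cdx1+/+ mTEC, a difference of 0.65 (SE 0.1, adjusted p = 0.0153) without overlap. Tlr1, a receptor for bacterial lipopeptides, rose by 0.59 (SE 0.1, adjusted p = 0.021). Tlr4, Tlr2 and Ccr2 gave 0.25 (adjusted p = 0.276), -0.22 (adjusted p = 0.206) and -0.41 (adjusted p = 0.215). Of 25 other epithelial antimicrobial genes 5 rose and 1 fell, with a median of -0.1, against the same 5.2% and 5.3%. The peptidoglycan recognition protein Pglyrp4 rose by 1.02 (SE 0.09, adjusted p = 0.00434), lysozyme Lyz2 by 0.93 (SE 0.09, adjusted p = 0.00542) and the airway protein Bpifa1 by 1.25 (SE 0.16, adjusted p = 0.0104), and the mucosal scavenger Dmbt1 differed by -1.06 (SE 0.11, adjusted p = 0.00674). The cathelicidin Camp gave -0.22 (adjusted p = 0.264). The defensin-like epididymal genes Spag11a and Spag11b gave 0.59 (adjusted p = 0.097) and -0.34 (adjusted p = 0.227).

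Genes of the tissues that normally make beta defensins were mixed. Of 16 tested epididymis secretory genes 3 were called lower and 1 higher, with a median of -0.24, where 5.3% and 5.2% of all probes were, and 1 of the 3 (Lcn5) passed the filter through Cdx1+/+ alone. The lipocalins Lcn8 and Lcn9 fell, at -0.69 (SE 0.09, adjusted p = 0.0104) and -0.44 (SE 0.09, adjusted p = 0.0327). Lcn5, a further lipocalin, was well above background in Cdx1+/+ mTEC only and passed the filter through that genotype, so it is at least 1.63-fold lower in Cdx1-/- mTEC (adjusted p = 0.0123), and the metalloprotease gene Adam28 rose by 0.68 (SE 0.15, adjusted p = 0.0389). Of 14 tested keratinocyte and airway genes 4 rose and none fell, against 5.2% and 5.3% of all probes, with a median of 0.36: the protease inhibitor Spink5 at 1.11 (SE 0.1, adjusted p = 0.00502), the cornified envelope protein Ivl at 0.72 (SE 0.08, adjusted p = 0.00755) and the keratins Krt10 at 0.82 (SE 0.11, adjusted p = 0.0106) and Krt6a at 0.86 (SE 0.17, adjusted p = 0.0287).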

How the data were processed

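Total RNA of 8 samples was hybridised, 1 sample per array. The deposited scanner files hold linear intensity per spot, background-subtracted and detrended within the array by Agilent Feature Extraction 10.7.3.1, per the file headers, and flags for signal above background. The authors' table holds a scaled signal per probe, which is the processed intensity times 1 constant per array with a median of 1, and the labels do not state how that constant was set. RNA was extracted and labelled by a service company, per the labels.

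Of 55681 non-control probes, 12 with outlier spots were left out. The processed intensity was put on the log2 scale and the array's 75th percentile subtracted. Probes were tested one by one with limma 3.58.1 (lmFit and eBayes, R 4.3.3), 2-sided, with Benjamini-Hochberg adjustment over all probes tested and a threshold of 0.05. The mTEC genotypes were compared on 6 arrays over 33520 probes that passed the flag on 2 or more arrays of 1 genotype. Tissues were compared on 8 arrays with genotype as a term, over 35226 probes that passed that filter or were above background on 1 SIEC array. The SIEC pair has no test. Of the 75 member probes all have 1 spot and 0 were saturated, and 57 passed the filter. Members, lists and neighbours were chosen with earlier results of these data known. Members that passed the filter are named with values, except 1 alpha probe that enters the counts but is not reported here, and of each list up to 4 genes of smallest p, with Mmp7, Nod2, Ccr6, Tlr4, Camp, Spag11a, Spag11b, Cdx1 and Cdx2. List genes are represented by 1 probe each.

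Replicate numbers come from the sample titles. Same-numbered mTEC arrays deviated together from their group means, with correlations over all tested probes of 0.295, 0.135 and 0.158, so the numbers may pair the samples. The reported genotype test is unpaired, and pairing enters only through the alternative with replicate as a block. Accessions of 59 of the 75 probes were found in the reference gene table (GRCm38.p6). Tests were tried on simulated data. Alternatives were normexp correction (offset 50), quantile normalization, the authors' table, a stricter and no filter, 1 probe per gene, slide and replicate as blocks, and leaving out each array. Tables and plots used pandas 2.3.3 and matplotlib 3.10.9.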

Additional observations from a re-analysis of the deposited data

Results flagged for a closer look

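For 4 placed alpha defensin probes, of 22 alpha probes tested, the genotypes lay apart on all mTEC arrays in one direction and the single SIEC arrays in the other. Among all probes tested in mTEC, 16.7% lay apart, lower in Cdx1-/-, so the count is near that share. Near copies share signal, so these are not 4 separate observations. Each was lower on every Cdx1-/- mTEC array than on any Cdx1+/+ mTEC array, and higher on the array labelled Cdx1-/- SIEC. The SIEC differences were 0.56 for Defa25, 0.43 for Defa23 probe 2, 0.32 for Defa3 probe 2 and 0.15 for Defa1 probe 3. In mTEC they were -0.71, -0.45, -0.40 and -0.39, none past the test. The difference between the tissues was not tested, the SIEC pair has 1 array per label, and the level of Cdx1 itself went against the SIEC labels. Groups of 3 arrays or fewer were not searched for an array that stands apart.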

How the results depend on the processing

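The genotype comparison in mTEC called 3519 of all probes, and 1899 with normexp, 716 with no filter, 1768 with slide as a block or within slide 1, and 840 to 1768 when 1 array was left out. Beta defensin calls numbered 9, then 5 with normexp, 3 with no filter and 3 to 9 when 1 array was left out (4 without Cdx1+/+ replicate 1, 3 without Cdx1+/+ replicate 3). The 8 chromosome 2 probes called lower, with Defb20 among them, became 5 with normexp, 3 with no filter, 5 with slide as a block or within slide 1, and 3 to 8 when 1 array was left out. Alpha defensin calls were 0, then 1 with quantile normalization, with the authors' table and with the stricter filter (Defa25 each time), 2 with the replicate block, and 0 whenever 1 array was left out. With the replicate block the 9 beta calls became 10 and the 8 chromosome 2 calls 7.

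Between tissues all-probe calls were 28947, and 43552 with no filter, with 27793 to 28763 when 1 array was left out. Calls of higher probes made up 39.8% of all calls, and 26% with normexp, 31.7% with the authors' table and 44.4% with quantile normalization. Alpha calls were 17, then 11 with 1 probe per gene, where fewer probes were tested, and 16 to 22 when 1 array was left out, and beta calls 28 to 34. With normexp the tissue difference turned negative for the dim beta probes Defb22 at -0.18, Defb41 at -0.12, Defb11 at -0.69, Defb20 at -0.59, Defb36 probe 1 at -0.05, Defb26 at -0.81, Defb30 probe 3 at -0.13, Defb47 at -0.33, Defb33 at -0.24 and Defb4 at -0.53, and for Defa-ps12 at -0.35. The cause was not tested. When 1 array was left out, Defa-rs2 probe 1, Defa-rs4 and Defa-rs12 ran from -4.74 to 3.77, -5.44 to 3.46 and -5.12 to 3.38, the ends coming from leaving out the array labelled Cdx1-/- SIEC and that labelled Cdx1+/+ SIEC.

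The mean difference in alpha probes well above background, mTEC minus SIEC, was 1.67 and became 2.5 with the less strict flag, with 1.17 to 2.17 when 1 array was left out. For beta probes it was 32.83 and became 24.33, with 32.3 to 33.5. Between mTEC genotypes the beta count differed by -2.67, by -0.33 with the less strict flag and by -3.67 to -1.67 when 1 array was left out, and the alpha count by -0.5 to 0. The 7 SIEC alpha differences stayed at least 8-fold under all 3 other scalings. With 3 arrays a genotype and 1 SIEC array a label, small differences cannot be seen, and dim probes depend on the background correction.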
